A study of Mus musculus with 6 samples.

Results

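The 10 genes described here are markers of epithelial and mesenchymal state in EMT6 cells, a mouse mammary carcinoma line of BALB/c origin. They were chosen by name, 5 on the epithelial side (Cdh1, Epcam, Krt8, Krt18 and Krt19) and 5 on the mesenchymal side (Vim, Cdh2, Zeb1, Zeb2 and Snai2), and all 10 are among the 53465 genes of the table. Polyadenylated RNA was sequenced from 6 libraries of cultured cells. In 3 libraries (PVITRO) the cells had been kept with an isotype control antibody, and in 3 (PTRVITRO) with anti-PD-L1 clone 80, which the labels call the resistant variant. Both antibodies were given at 0.5 µg/ml for more than 4 weeks, in RPMI with 5% FBS, so every library comes from antibody-treated cells without a host or added immune cells. All libraries derive from a single cell line, and the labels do not say whether the replicates of a group were separate cultures, so p-values measure only the spread between these libraries, which may be technical. Total counts ran from 17757341 to 32426739 per library.

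Epithelial cells adhere to each other through E-cadherin, which Cdh1 encodes, and carry intermediate filaments built from keratins, in which a type I keratin such as keratin 18 or 19 pairs with a type II keratin such as keratin 8. Mesenchymal cells instead build filaments of vimentin and often use N-cadherin, which Cdh2 encodes. The transcription factors ZEB1, ZEB2 and SNAI2 repress epithelial genes through E-box letters in their promoters, and carcinoma cells may hold features of both states at once.

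To place these letters beside the values, the 250 bases upstream of the RefSeq transcription start (GRCm38.p6) were searched for CAGGTG and its reverse complement CACCTG, which covers both strands. Of 32851 promoter windows of this length, 17.2% held at least 1 match. The windows of 4 of the 10 markers are reported here. Epcam held 2 matches, at 187 and 19 bases upstream of the start, and Krt18 held 1 at 214 bases. The window of Vim and the 4 windows of Zeb2 held none. The Vim window and most Zeb2 windows lie downstream of the start that GENCODE gives the gene. The windows of Epcam and Krt18 are shown because they belong to epithelial markers whose values follow, with the matching letters in capitals. The sequence of Krt18 is printed only as far as the GENCODE start, which lies upstream of the RefSeq start, so it shows the first 214 of the 250 bases searched. Epcam is given at chr17:87635729-87635978 and Krt18 at chr15:102027966-102028179, both on the plus strand. A match is a description of the letters and not a binding site.

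Epcam: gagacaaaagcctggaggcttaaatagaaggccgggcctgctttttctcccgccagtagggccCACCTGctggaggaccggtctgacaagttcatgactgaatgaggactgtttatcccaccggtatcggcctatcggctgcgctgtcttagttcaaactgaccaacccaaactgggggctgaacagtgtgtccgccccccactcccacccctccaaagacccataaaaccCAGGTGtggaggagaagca
Krt18: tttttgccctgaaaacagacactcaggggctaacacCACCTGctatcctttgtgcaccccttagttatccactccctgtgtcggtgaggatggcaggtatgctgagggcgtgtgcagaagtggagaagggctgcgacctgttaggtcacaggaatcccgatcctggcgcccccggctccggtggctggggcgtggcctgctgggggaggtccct

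EMT6 cells of both groups held abundant RNA for keratin 8, keratin 18, vimentin and SNAI2, little RNA for EpCAM, and next to none for E-cadherin or N-cadherin. Levels are given as CPM (counts scaled to library size and between libraries by the upper quartile) and, where genes are compared with each other, as CPM per kilobase of exon. Krt8 led with a mean of 552 CPM per kilobase (range 527 to 576 over the 6 libraries), above 99.4% of the 14217 genes that passed the filter on low counts. Vim followed at 398 CPM per kilobase (388 to 416) and Krt18 at 361 (334 to 395), and the ranges of these neighbours overlapped. Snai2 reached 130.2 CPM per kilobase (125 to 135), above 96.8% of the tested genes. Krt19 lay at 10.4 CPM per kilobase, Zeb2 at 3.33, Zeb1 at 1.36 and Epcam at 0.873, and from Snai2 down to Epcam no range overlapped that of the next gene. With the longest annotated transcript in place of the merged exons as the length, Vim (646 CPM per kilobase) stood above Krt8 (552), so the order of these leading filament genes depends on the length used. That length also put Zeb2 at 7.28 and Zeb1 at 2.41 CPM per kilobase, with their places in the order unchanged. A ratio between genes in this text depends on the length in the same way, but its comparison between libraries does not.

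**Figure D1:**
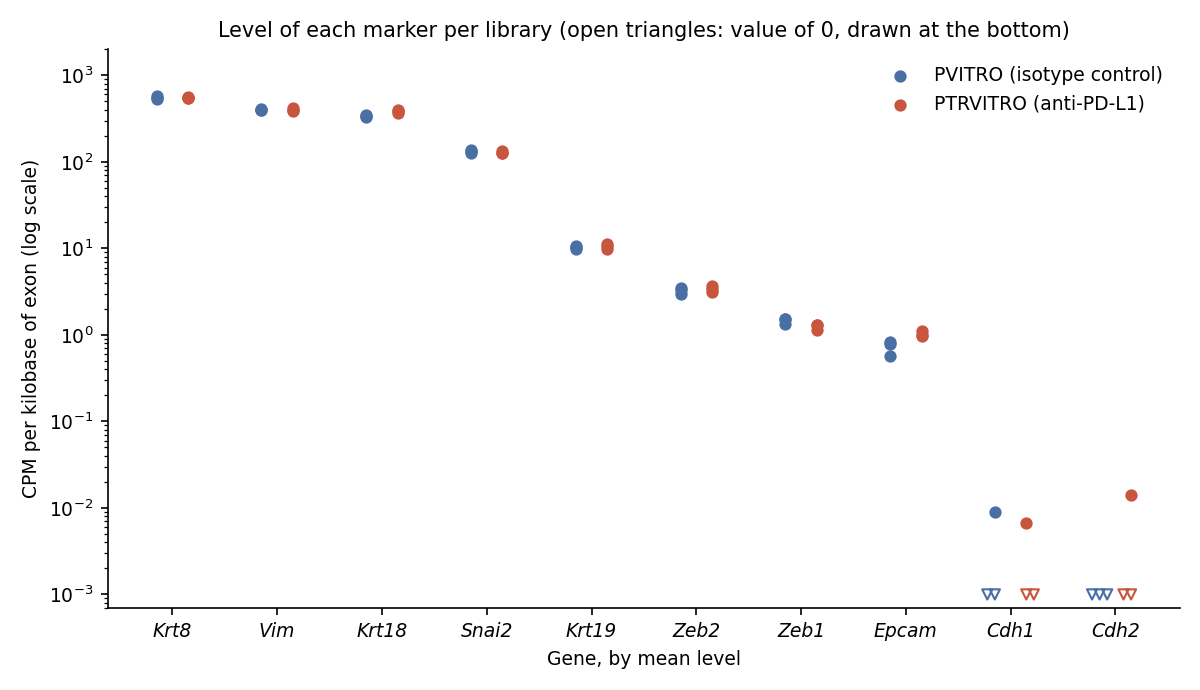
Level of each of the 10 markers in CPM per kilobase of exon on a log scale, with 3 PVITRO libraries in blue and 3 PTRVITRO libraries in red, and open triangles at the bottom for values of 0. Krt8, Vim, Krt18 and Snai2 form the upper group in every library, at 125 CPM per kilobase or more, whereas Cdh1 and Cdh2 lie at 0 in most libraries.

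The E-cadherin and N-cadherin genes were at or under the floor of 3 counts in all 6 libraries. Cdh1 (ENSMUSG00000000303.12, chr8:106603351-106670246, plus strand) had a count of 1 in PVITRO replicate 3 and in PTRVITRO replicate 1, and 0 in the other 4 libraries. Cdh2, the N-cadherin gene, had a count of 2 in PTRVITRO replicate 3 and 0 elsewhere. A count of 3 corresponds to 0.0925 CPM in the deepest library and 0.168 CPM in the shallowest, so the levels of either cadherin were not detectable above that limit, and neither gene could be tested. Among the 23 genes named Cdh and a number, a family looked up after the values were seen, 17 had at most 3 counts in every library and 8 of these had none at all. Cdh24, a cadherin of another subgroup, was the only one above 1 CPM per kilobase (10.6, range 9.82 to 11.2), and P-cadherin (Cdh3) lay at 0.275 CPM per kilobase.

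The keratins were dominated by the Krt8 and Krt18 pair. Of 53 genes named Krt and a number, 39 had at most 3 counts in every library, and the sum of the family's levels per kilobase was 58.1% Krt8 and 38.0% Krt18. Krt17 followed at 14.2 CPM per kilobase, Krt19 at 10.4, Krt80 at 6.37 and Krt14 at 4.58. This family, too, was looked up after the values were seen, and its shares are a description of levels.

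The comparison of PTRVITRO with PVITRO asked whether the markers differ between cells kept with the antibody against PD-L1 and cells kept with its isotype control. With the edgeR quasi-likelihood test and Benjamini-Hochberg adjustment over all 14217 tested genes, 0 of the 8 tested markers were called at an adjusted p below 0.05, where 0.246% of all tested genes were called. At an unadjusted p below 0.05 there were 3 markers, against 11.4% of all tested genes. These were Krt18 and Epcam, with higher values in PTRVITRO, and Zeb1, with lower values, and for the same 3 genes the groups did not overlap. Among all tested genes the groups did not overlap for 8.27% in the higher direction and for 9.33% in the lower. By the other tools, limma-voom called 0 markers (0.218% of all tested genes) and DESeq2 called 1, Krt18 (0.781% of all tested genes). The median log2 fold change of the 8 markers was 0.03, beside -0.004 for all tested genes. In bulk RNA, fewer cells of a kind and less RNA per cell cannot be told apart.

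**Figure D2:**
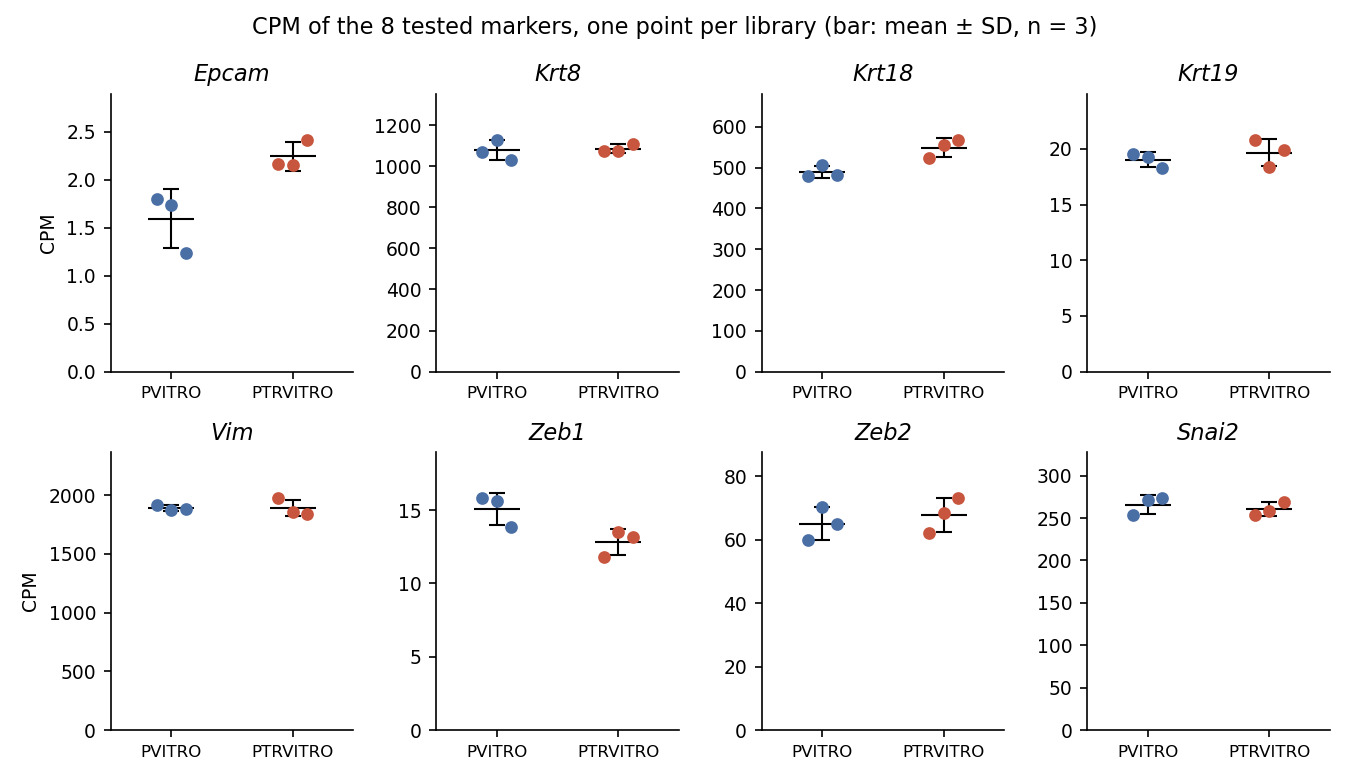
CPM of the 8 tested markers on linear axes that start at 0, with 1 point per library (3 PVITRO, 3 PTRVITRO) and a bar for the mean ± SD. Krt18 and Epcam lie higher and Zeb1 lies lower in all 3 PTRVITRO libraries than in any PVITRO library, and the groups overlap for the other 5 genes.

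Krt18 (ENSMUSG00000023043.6, chr15:102028180-102032027, plus strand), the type I partner of keratin 8, had the smallest p of the markers. Its level was 479.8, 505.9 and 481.4 CPM in the PVITRO libraries and 523.2, 555.9 and 567.9 CPM in the PTRVITRO libraries. The lowest PTRVITRO library stood above the highest PVITRO library, with means of 489.0 ± 14.6 and 549.0 ± 23.1 CPM (SD, n = 3 each). The log2 fold change was 0.17 (SE 0.0389), a ratio of 1.12, with an edgeR adjusted p of 0.139 and an unadjusted p of 0.00136. The call depended on the tool and the filter. DESeq2 gave an adjusted p of 0.0449, and edgeR without a filter on low counts gave 0.00337, a setting under which 1.58% of 25274 genes were called. Over all alternatives run for this gene the log2 fold change stayed between 0.146 and 0.201 and the adjusted p between 0.00337 and 0.444.

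Krt8 (ENSMUSG00000049382.9, chr15:101996698-102004482, minus strand) lies beside Krt18 and is read away from it, with 23.7 kb between the start sites. Its level was 1070, 1128 and 1031 CPM in PVITRO and 1073, 1075 and 1110 CPM in PTRVITRO. The groups overlapped throughout, and the log2 fold change was 0.01 (SE 0.0368, with an adjusted p of 0.936 by edgeR). A processed pseudogene on chromosome 7, Krt8-ps, is 98.6% identical to Krt8 over 941 bases, so reads may have been split between the copies. Krt8-ps held between 4.92% and 5.42% of the summed level of the 2 genes, and with both counted as 1 gene the adjusted p of Krt8 was 0.909.

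Since Krt8 and Krt18 form a pair, their levels were also set against each other within each library. The ratio of Krt18 to Krt8 per kilobase was 0.611, 0.611 and 0.636 in the PVITRO libraries and 0.664, 0.705 and 0.697 in the PTRVITRO libraries. All PTRVITRO ratios stood above all PVITRO ratios. The ratio contains the Krt18 values already described and is no separate evidence.

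Krt19 (chr11:100140810-100148665, minus strand), a type I keratin of simple epithelia, was present at 19.5, 19.3 and 18.3 CPM in PVITRO and at 20.8, 18.4 and 19.9 CPM in PTRVITRO. The groups overlapped, and the log2 difference was 0.05 (SE 0.0672, with an adjusted p of 0.837 by edgeR). Its ratio to Krt8 per kilobase ran from 0.0180 to 0.0205 over the 6 libraries.

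Epcam (ENSMUSG00000045394.8, chr17:87635979-87651129, plus strand) encodes an epithelial cell adhesion molecule and was the least abundant of the tested markers. Its counts were 42, 52 and 30 in PVITRO and 70, 61 and 43 in PTRVITRO, which correspond to 1.80, 1.74 and 1.24 CPM and to 2.16, 2.15 and 2.41 CPM. The groups did not overlap, with means of 1.59 ± 0.306 and 2.24 ± 0.149 CPM (SD, n = 3 each). The log2 fold change was 0.48 (SE 0.199, with an adjusted p of 0.392 by edgeR, unadjusted p = 0.0351), the largest of the markers in size and also the least precise. Leaving out each library in turn moved it between 0.34 and 0.57.

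The mesenchymal filament gene Vim (chr2:13573927-13582826, plus strand) was at 1916, 1871 and 1881 CPM in PVITRO and at 1972, 1859 and 1840 CPM in PTRVITRO. The PTRVITRO libraries span the PVITRO values on both sides. Its log2 fold change was 0.0009 (SE 0.0329, with an adjusted p of 0.996 by edgeR). The ratio of Vim to Krt8 per kilobase overlapped between the groups, from 0.685 to 0.753 in PVITRO and from 0.684 to 0.759 in PTRVITRO. The ratio of Vim to Krt18 ran from 1.12 to 1.21 in PVITRO and from 0.982 to 1.14 in PTRVITRO, and overlapped as well.

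**Figure D3:**
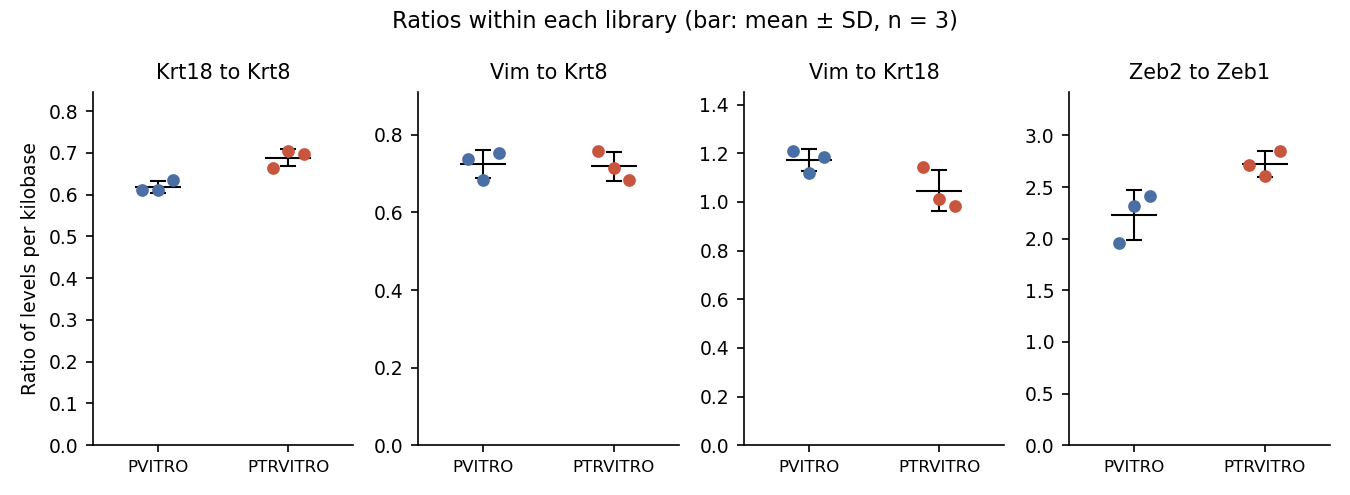
Ratios of levels per kilobase within each library for 4 pairs of markers, with 1 point per library and a bar for the mean ± SD of 3 libraries. The ratios of Krt18 to Krt8 and of Zeb2 to Zeb1 are higher in every PTRVITRO library than in any PVITRO library, whereas both ratios of Vim overlap.

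Of the 3 transcription factors, Zeb1 was the one whose groups did not overlap. Zeb1 (chr18:5591860-5775467, plus strand) was at 15.8, 15.6 and 13.9 CPM in PVITRO and at 11.8, 13.5 and 13.2 CPM in PTRVITRO. The margin was small, since PVITRO replicate 3 stood only just above PTRVITRO replicate 2. The means were 15.1 ± 1.08 and 12.8 ± 0.891 CPM (SD, n = 3 each), and the log2 difference was -0.24 (SE 0.0823, with an adjusted p of 0.292 by edgeR, unadjusted p = 0.0142). No alternative called it, and with each library left out in turn the log2 fold change ran from -0.29 to -0.18.

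Zeb2 (chr2:44983632-45117395, minus strand), the more abundant of the ZEB pair, was at 59.9, 70.2 and 65.0 CPM in PVITRO and at 62.2, 68.3 and 73.0 CPM in PTRVITRO. The groups overlapped, and the log2 difference was 0.05 (SE 0.0680, with an adjusted p of 0.823 by edgeR). Its antisense partner Zeb2os lay far lower, at 1.61 to 1.84 CPM in PVITRO and 1.23 to 1.88 CPM in PTRVITRO, and whether the counting used the strand is not stated, so a few reads may be shared between them. The ratio of Zeb2 to Zeb1 per kilobase was 1.95, 2.31 and 2.42 in PVITRO and 2.71, 2.61 and 2.85 in PTRVITRO. These ratios did not overlap, and they rest on the Zeb1 values above.

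Snai2 (chr16:14705852-14709385, plus strand), which encodes the repressor SLUG, was at 253.6, 270.9 and 273.2 CPM in PVITRO and at 253.5, 258.9 and 269.2 CPM in PTRVITRO. The groups overlapped almost completely, and the log2 difference was -0.03 (SE 0.0401, with an adjusted p of 0.829 by edgeR).

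The surrounding genes of epithelial and mesenchymal state were read from 7 further lists and 5 lists of cell type markers, in all 156 genes, of which 95 were tested and 0 were called by edgeR. At an unadjusted p below 0.05, 4 of the 95 were higher in PTRVITRO and 19 were lower, beside 5.26% and 6.13% of all tested genes. DESeq2 called 3 of the 95, and limma-voom 0.

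Of 32 epithelial junction and polarity genes, 18 were tested, and the median log2 fold change was 0.07. An unadjusted p below 0.05 was found for 3, all with higher values in PTRVITRO, beside 5.26% of all tested genes. Spint1, an inhibitor of epithelial surface proteases, was at 1.20, 1.34 and 1.57 CPM in PVITRO and 2.47, 2.36 and 2.36 CPM in PTRVITRO (log2 difference 0.81 with an SE of 0.186, adjusted p of 0.131 by edgeR). Ppl, which encodes the desmosomal linker periplakin, differed by 0.21 on the log2 scale (adjusted p of 0.275 by edgeR). The tight junction genes F11r and Tjp1 were the most abundant of the list, at 69.4 and 30.4 CPM per kilobase, and had log2 fold changes of 0.02 and 0.03 with overlapping groups. The list is uneven, as 11 of its genes, among them Cldn4, Cldn7, Crb3, Rab25 and Cd24a, had at most 3 counts in every library.

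Of 15 epithelial regulators, 7 were tested, and 3 had an unadjusted p below 0.05, all with lower values in PTRVITRO, beside 6.13% of all tested genes. Klf4, which was at 102.5 CPM per kilobase the most abundant of them, had means of 324 ± 3.74 CPM in PVITRO and 301 ± 5.70 CPM in PTRVITRO (SD, n = 3 each, log2 fold change -0.11, edgeR adjusted p = 0.224), and the groups did not overlap. Klf5 had a log2 fold change of 0.01 and Trp63, a basal lineage factor, of -0.25 (adjusted p = 0.386), both with overlapping groups. Esrp1, Grhl2, Grhl3, Ovol2, Elf5 and Foxa1, which maintain epithelial programmes, had at most 3 counts in every library.

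Of 14 other keratin genes 5 were tested. An unadjusted p below 0.05 with lower values in PTRVITRO was found for 3, Krt17, Krt14 and Krt16, beside 6.13% of all tested genes. Their groups did not overlap, as for 9.33% of all tested genes in the lower direction. Some of their counts were not whole, and reads shared among these 3 genes were not looked for. Krt17, a keratin of basal and stressed epithelia, was at 22.3, 26.3 and 25.2 CPM in PVITRO and 19.6, 18.4 and 20.6 CPM in PTRVITRO (log2 difference -0.34 with an SE of 0.0742, adjusted p of 0.104 by edgeR, DESeq2 adjusted p = 0.049). Krt14, a basal keratin, differed by -0.25 on the log2 scale (adjusted p of 0.347 by edgeR), and Krt16, with 201 counts over all libraries, by -0.77 (edgeR adjusted p = 0.25). Krt80 had a log2 fold change of 0.08 with overlapping groups.

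Of 16 other transcription factors of epithelial to mesenchymal transition, 11 were tested. Beside 11.4% of all tested genes, 1 of them had an unadjusted p below 0.05. This was Prrx1, a mesenchymal homeobox gene, with means of 60.9 ± 1.11 CPM in PVITRO and 52.8 ± 2.80 CPM in PTRVITRO and groups that did not overlap (SD, n = 3 each, log2 difference -0.20 with an SE of 0.0470, adjusted p of 0.134 by edgeR). Sox9 and Sox4 were the most abundant of them, at 21.1 and 19.1 CPM per kilobase, with log2 fold changes of 0.08 and -0.03. Snai3 lay near the floor at 0.241 CPM per kilobase.

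Of 34 mesenchymal and adhesion genes, 26 were tested. An unadjusted p below 0.05 was found for 9, all with lower values in PTRVITRO, beside 6.13% of all tested genes. The groups did not overlap for 10 genes in the lower direction and for 1 in the higher, beside 9.33% and 8.27% of all tested genes, and the median log2 fold change was -0.09, so Vim, at 0.0009, stood above most of this list. Dcn, which encodes the matrix proteoglycan decorin, was at 46.9, 35.8 and 44.0 CPM in PVITRO and 33.2, 27.7 and 23.8 CPM in PTRVITRO (log2 difference -0.56 with an SE of 0.118, adjusted p of 0.0919 by edgeR). DESeq2 gave Dcn an adjusted p of 7.4e-05. Ncam1, a neural cell adhesion molecule, differed by -0.17 on the log2 scale (adjusted p of 0.154 by edgeR). The most abundant genes of the list, Lgals1 at 3121 and S100a4 at 671 CPM per kilobase, had log2 fold changes of 0.05 and 0.06.

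Of 11 catenins and cadherin partners, 9 were tested and 1 had an unadjusted p below 0.05, beside 11.4% of all tested genes. Ctnnb1 and Ctnna1, which encode the catenins that tie classical cadherins to actin, were at 77.5 and 61.8 CPM per kilobase although Cdh1 and Cdh2 were at the floor, and had log2 fold changes of -0.06 and 0.04. Cbll1, which encodes the E-cadherin ubiquitin ligase Hakai, differed by 0.23 on the log2 scale (SE 0.0602, adjusted p of 0.175 by edgeR). All 14 genes for repressor cofactors of ZEB and SNAI proteins were tested, with a median log2 fold change of 0.01. The abundant ones, Ctbp1 and Hdac2, had log2 fold changes of -0.04 and 0.07, and Smarca4, the 1 gene with an unadjusted p below 0.05, of -0.12 (edgeR adjusted p = 0.21).

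**Figure D4:**
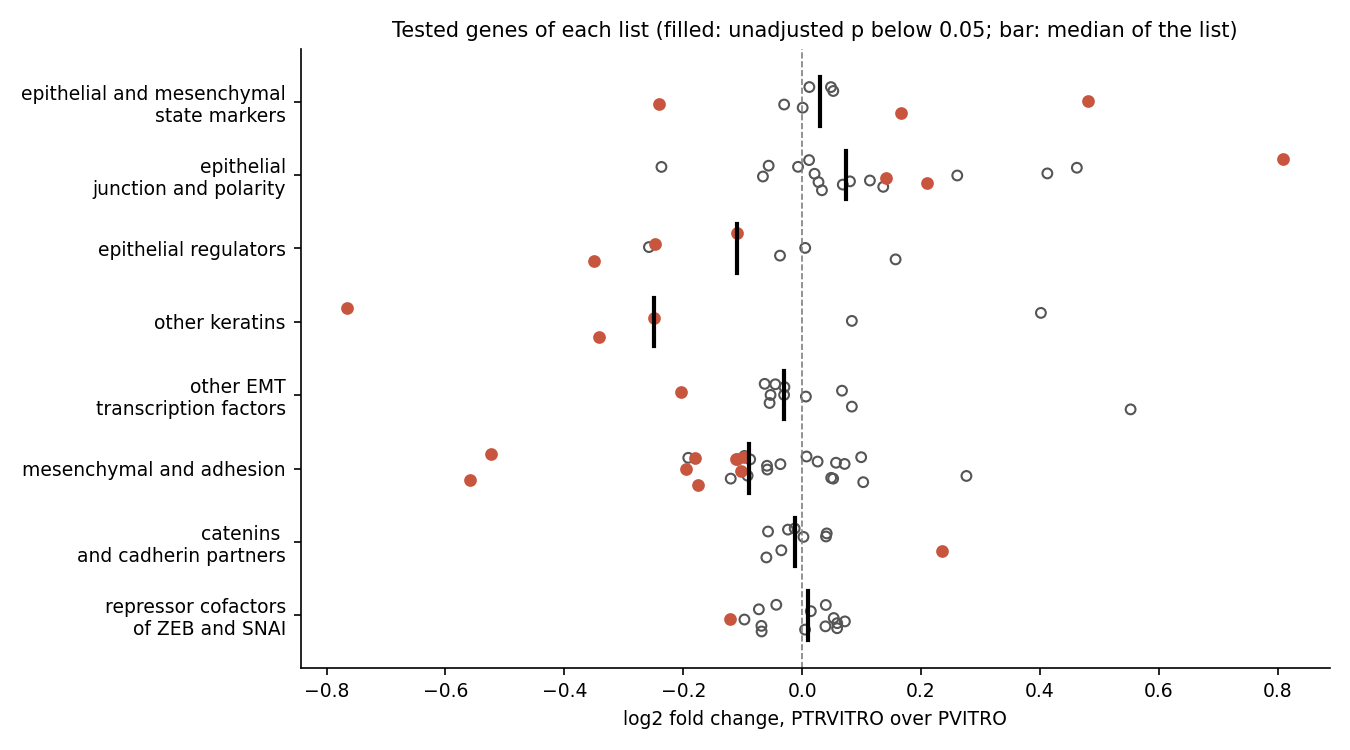
Log2 fold change of PTRVITRO over PVITRO for every tested gene of the 10 markers and of 7 surrounding lists, with filled points for an unadjusted p below 0.05 and a black bar for the median of each list. The median is highest for the junction list (0.07) and lowest for the other keratins (-0.25).

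The labelled cell type was checked with marker lists, which share genes with the markers above. Of 13 luminal markers 6 were tested, and Cdh1, Cldn4, Cldn7, Foxa1, Elf5 and Pgr had at most 3 counts in every library. Of the 6 tested genes, 4 had log2 fold changes above 0 and 2 below, with a median of 0.03, and 4 of the 6 are Epcam, Krt8, Krt18 and Krt19, described above. The 13 genes summed to 1549 to 1671 CPM in PVITRO and 1635 to 1714 CPM in PTRVITRO, ranges that overlap. The other tested genes, Esr1 and Gata3, were at 0.893 and 0.809 CPM per kilobase, with log2 differences of -0.10 and -0.35 (adjusted p of 0.712 and 0.397 by edgeR). The 8 myoepithelial and basal markers were led by Acta2 and by Krt17. They summed to 78.0 to 79.7 CPM in PVITRO and 64.0 to 73.7 CPM in PTRVITRO. Of these, Myh11, Cnn1 and Oxtr had at most 3 counts in every library, and Krt5, with 12 counts over all libraries, was not tested. The 8 fibroblast markers summed to 2466 to 2604 CPM in PVITRO and 2159 to 2358 CPM in PTRVITRO. Nearly all of that sum was Col1a1 and Col1a2, with log2 differences of -0.18 and -0.14 (adjusted p of 0.155 and 0.14 by edgeR), whereas Lum, Thy1 and Fap had at most 3 counts in every library. The 8 leukocyte markers summed to 12.5 to 13.8 and 11.7 to 13.4 CPM, nearly all Cd68 with a trace of Lyz2, and Ptprc, Cd3e, Adgre1, Itgam and Tyrobp had at most 3 counts in every library. The 5 endothelial markers summed to 0.248 to 0.385 and 0.176 to 0.247 CPM, near the floor, with at most 3 counts of Cdh5, Kdr and Vwf in every library. The sums of the basal and fibroblast markers did not overlap between the groups and were lower in PTRVITRO, in the same direction as Zeb1 and Prrx1, and their part in those values was not tested. Dcn, described above, is itself 1 of the 8 fibroblast markers.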

How the data were processed

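RNA was measured in 6 libraries of cultured EMT6 cells. Per the labels and the methods of the study, stranded mRNA libraries were sequenced, checked with FastQC 0.11.5, aligned with STAR 2.6.0a to GRCm38 and quantified with RSEM 1.3.1. The deposited values are the expected counts per gene that RSEM estimated for the authors, not scaled between libraries, and 12.5% to 13.8% of the values in a library were not whole. Whether RSEM was told the strand is not given in the sources used here. Floors cover counting error only.

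Expected counts were rounded. Genes were filtered with filterByExpr (minimum count 10, minimum total 15), libraries were scaled by the upper quartile, and groups were compared with the edgeR 4.0.16 quasi-likelihood F test in R 4.3.3, with Benjamini-Hochberg adjustment over 14217 genes. SEs were derived from the F statistic. A gene was called at an adjusted p below 0.05. CPM per kilobase used merged exons of GENCODE on GRCm38, which named 53360 of 53465 identifiers. Coordinates are from that annotation. Promoter sequences are from RefSeq (GRCm38.p6). The promoter window of Krt8 is not reported here. BLAST+ 2.17.0 was used to look for copies that share 200 or more bases at 95% identity or better. Replicate libraries differed by more than sampling noise (chi-square per degree of freedom 2.79 to 8.68), so none was counted as a duplicate. Only the edgeR, DESeq2 and limma-voom fits in their main setting were tested on simulated counts with known changes.

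The alternatives were TMM, no scaling factor, DESeq2 1.42.0, limma-voom (limma 3.58.1), no filter, at least 10 counts in every library, the replicate number as a block, each library left out, and the longest transcript as the length. Counting Krt8 together with Krt8-ps was added after seeing the data. The markers and the gene lists were chosen with earlier results of these data known. The text names every marker and, from each list and leaving out the markers, the 2 genes with the highest level per kilobase and the 2 with the smallest p. Genes listed as having at most 3 counts, and the keratin and cadherin families, were named after their values were seen.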

Additional observations from a re-analysis of the deposited data

How the results depend on the processing

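Over all tested genes, 35 calls (14 higher and 21 lower in PTRVITRO) became 111 (43 and 68) with DESeq2, 400 (163 and 237) without a filter on low counts, 54 (19 and 35) with at least 10 counts in every library and 68 (25 and 43) with the replicate block. Leaving out each library in turn gave 8 to 64 calls (0 to 19 higher, 6 to 45 lower): 11 without PVITRO replicate 1, 64 without PVITRO replicate 2, 9 without PVITRO replicate 3, 12 without PTRVITRO replicate 2 and 8 without PTRVITRO replicate 3. The count of markers called was 0 by edgeR and became 1, Krt18, with DESeq2 (log2 fold change 0.17, adjusted p = 0.0449) and without the filter (log2 fold change 0.17, adjusted p = 0.00337). It remained 0 with each library left out and with the replicate block, under which the adjusted p of Krt18 was 0.07. Genes called in the other lists went from 0 to 3 with DESeq2 (Dcn, Col1a1 and Krt17), 10 without the filter, 3 with the replicate block and 0 to 2 with each library left out. The cause of these shifts was not tested. Same-numbered libraries correlated in their deviations at 0.126, 0.156 and -0.0305. Libraries of different numbers were not compared in this way, so these values do not decide whether the numbers pair the libraries.

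The log2 fold changes of the markers kept direction and side of the threshold in 53 of 56 comparisons with other settings and in 44 of 48 with a library left out. The exceptions beside Krt18 were near 0. Vim, at 0.000922, became -0.0043 with at least 10 counts in every library, and ran from -0.0294 to 0.024 with each library left out. Krt8 ran from -0.016 to 0.0479 there. DESeq2 gave Epcam no adjusted p. With the longest transcript as the length, 6 of the 10 markers kept their place in the order of levels. Depth limits Cdh1, Cdh2 and, with 298 counts in all, Epcam.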
